A study of Macaca mulatta with 8 samples.

Results

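Kainate receptors are described here through the 5 genes of their subunits, GRIK1 (ENSMMUG00000004886), GRIK2 (ENSMMUG00000009856), GRIK3 (ENSMMUG00000009679), GRIK4 (ENSMMUG00000022347) and GRIK5 (ENSMMUG00000017431). They were taken by gene symbol, and all 5 were found among the 21748 genes of the count matrix. The study isolated nuclei from frozen brain of male rhesus macaques (Macaca mulatta) and sequenced the 3' ends of their RNA in droplets (10x Genomics, v3), where molecular barcodes (UMIs) give the number of captured RNA molecules. The tissue label reads hippocampus, whereas the growth protocol speaks of the amygdala, and nothing in the sources used here decides between them. The control group was 1 pool of 2 animals without exposure, and the sevoflurane group was 1 animal that breathed the anaesthetic at about 2.5 to 3% for 4 h per session. Its first session was near postnatal day 7, and the label gives 14 and 28 days for the later ones without saying whether these are ages or intervals. Each group was divided into 4 samples of the same material, so the samples of a group are not separate animals.

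The 59749 nuclei carry a library number from 1 to 8 on their barcodes, and no source used here ties a number to a sample. The levels below therefore describe cell classes over all libraries, and no exposure effect was computed. The matrix counts as 1 sample, so no p-value is given. The spread is shown as the lowest, median and highest library with at least 50 nuclei of a class. Such libraries may be aliquots of 1 animal, and their spread may be technical.

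Kainate receptors are glutamate-gated cation channels made of 4 subunits. GRIK1, GRIK2 and GRIK3 encode the low-affinity subunits GluK1, GluK2 and GluK3, which can form channels alone or together. GRIK4 and GRIK5 encode the high-affinity subunits GluK4 and GluK5, which need a low-affinity partner to reach the membrane as working channels. In the hippocampus these receptors are known for slow currents at the synapses of mossy fibres, the axons of granule neurons, on CA3 pyramidal neurons, and for setting transmitter release and the firing of interneurons.

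After filters, 54644 nuclei were kept and grouped into 46 clusters, without use of the glutamate receptor genes and their partners in the clustering. Clusters were named from marker panels, and each class name below means nuclei resembling that type. Library totals ran from 35806547 to 47007082 UMIs, and the median nucleus of a library from 3189 to 5831 UMIs. The libraries stood apart: 31 of the 46 clusters drew at least 90% of their nuclei from 4 of the 8 libraries, 16 of them from libraries 1 to 4 and 15 from libraries 5 to 8. Of the barcode sequences, 429 (0.723%) occurred in more than 1 library. The somatostatin gene SST (394 CPM) and FIBCD1 (82.3 CPM), a marker of CA1, were highest in the SST-like and pyramidal-like classes. In all, 4 of the 7 genes of the SST panel and 3 of the 6 of the pyramidal panel were highest in their own class. MPPED1, NECTIN3 and SPOCK1 of the pyramidal panel, and LHX6, SOX6 and NXPH1 of the SST panel, were higher in other classes. PVALB itself reached only 4.64 CPM in the class that matched the PVALB panel, so that class is called PVALB-panel interneurons. LHX6 was at 132 CPM there. The name rests on the panel score, and absence of SST or LAMP5 was not required. The granule-like class had PROX1 at 263 CPM, but none of the 7 genes of its panel was highest there, DSP was at 0.557 CPM and TDO2 at 0, so the name rests on few markers.

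Levels are UMIs of a gene per 1000000 UMIs of the class (CPM) and are compared for 1 gene across classes, not between genes. GRIK1 was highest in interneurons when the named classes were taken whole. Pyramidal-like cluster 40 (2050 CPM) nevertheless lay above the PVALB-panel and VIP/CALB2-like classes. GRIK1 stood at 6153 CPM in the 1500 SST-like interneurons, with 5348, 6150 and 7096 CPM in the lowest, median and highest library. RELN/ADARB2-like interneurons had 3704 CPM (libraries 3427, 3640 and 4345) and LAMP5/LHX6-like interneurons 3127 CPM (2826, 3040 and 3480, over 5 libraries). PVALB-panel interneurons followed at 1940 CPM (1591, 1895 and 2484) and VIP/CALB2-like interneurons at 1016 CPM (745, 1015 and 1188). The lowest SST-like library lay above the highest library of every other named class. Outside the interneurons, the named class with the highest GRIK1 level was oligodendrocyte precursors, the dividing cells that give rise to myelinating glia. They had 758 CPM (678, 792 and 893), and their library range overlapped that of VIP/CALB2-like interneurons. Pyramidal-like neurons had 626 CPM (549, 614 and 749) and granule-like neurons 292 CPM (257, 282 and 330). The remaining named classes other than the 93 cycling nuclei lay between 78.7 and 187 CPM, close to the 157 CPM of microglia-like nuclei. How much of these low levels is free RNA was not tested. Among them, FOXP2 excitatory neurons (187 CPM) spread widely, from 83.2 to 383 CPM over libraries. Their cluster 25, mainly of libraries 1 to 4, had 293 CPM, and their cluster 19, mainly of libraries 5 to 8, had 122 CPM.

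GRIK2, which encodes the subunit found in most brain kainate receptors, gave UMIs in every named class, microglia-like nuclei included (671 CPM), so the lowest levels are not read as expression. RELN/ADARB2-like interneurons had the highest level, 6123 CPM (5546, 6156 and 7888), and SST-like interneurons had 5448 CPM (5241, 5476 and 5580), with overlapping library ranges. LAMP5/LHX6-like interneurons had 3893 CPM (3478, 3541 and 4353), PVALB-panel interneurons 3432 CPM (2789, 3296 and 4189) and VIP/CALB2-like interneurons 2814 CPM (2603, 2875 and 3015). Granule-like neurons had 2500 CPM (2216, 2685 and 2876), the highest level of the named excitatory types. The whole oligodendrocyte lineage lay near that level, with 1796 CPM in precursors (1586, 1767 and 1831), 2120 CPM in newly formed oligodendrocytes (1970, 2062 and 2274, over 4 libraries) and 2035 CPM in oligodendrocytes (1475, 1871 and 2109). Pyramidal-like neurons were lower, at 1079 CPM (861, 1065 and 1325), and immature neurons had 696 CPM (669, 709 and 812), within the range of the microglia-like libraries (583 to 822 CPM). Astrocytes (488 CPM) and endothelial nuclei (342 to 440 CPM over libraries) were the lowest classes.

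GRIK3 had a patchy pattern that cut across the main branches of neurons. SST-like interneurons had 596 CPM (451, 599 and 724), FOXP2 excitatory neurons 559 CPM (443, 534 and 653), immature neurons 451 CPM (388, 430 and 477) and PVALB-panel interneurons 340 CPM (276, 321 and 397). Oligodendrocyte precursors had 246 CPM (229, 272 and 380) and newly formed oligodendrocytes 237 CPM (217, 222 and 270). The other interneurons were lower. VIP/CALB2-like nuclei had 68.4 CPM (35.0, 71.4 and 89.6), mid-order and level with granule-like and CUX2 excitatory neurons, and the values were 17.8 CPM in LAMP5/LHX6-like (13.2, 15.3 and 25.8) and 16.1 CPM in RELN/ADARB2-like nuclei (6.19, 14.8 and 27.7). Pyramidal-like neurons had 20.6 CPM (5.73, 19.8 and 38.7), level with the 20.7 CPM of microglia-like nuclei. Oligodendrocytes had 13.7 CPM (8.02 to 17.2).

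GRIK4, a high-affinity subunit gene, was highest in a glial class when the named classes were taken whole, although 2 neuronal clusters, 16 (901 CPM) and 40 (791 CPM), lay above it. Newly formed oligodendrocytes, which express BCAS1 and ENPP6, had 720 CPM (668, 726 and 754), and every one of their 4 libraries lay above those of all other named classes. Pyramidal-like neurons had 551 CPM (491, 548 and 610) and oligodendrocyte precursors 476 CPM (440, 486 and 529). Ependymal nuclei, the ciliated cells lining the ventricles, had 257 CPM (167, 273 and 401). CUX2 and FOXP2 excitatory neurons, oligodendrocytes and astrocytes lay between 191 and 243 CPM. Interneuron classes were lower, from 171 CPM in RELN/ADARB2-like nuclei (149, 176 and 230) to 90.1 CPM in SST-like nuclei (50.1, 95.8 and 121) and 63.5 CPM in PVALB-panel nuclei (43.6, 63.2 and 84.2). Granule-like neurons had 165 CPM with a wide spread, from 61.6 to 336 CPM.

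GRIK5, the other high-affinity subunit gene, was the most even of the 5. Granule-like neurons had 209 CPM (168, 213 and 245), pyramidal-like neurons 199 CPM (186, 193 and 235), FOXP2 excitatory neurons 164 CPM (135, 165 and 186) and CUX2 excitatory neurons 142 CPM (104, 145 and 170). The 5 interneuron classes lay between 96.4 and 130 CPM with overlapping libraries. Oligodendrocyte precursors had 99.2 CPM (82.6, 102 and 156) and astrocytes 92.8 CPM (75.1, 97.1 and 118). Newly formed oligodendrocytes (47.2 CPM), oligodendrocytes (33.4 CPM) and microglia-like nuclei (22.6 CPM) were lowest together with endothelial nuclei (31.1 CPM).

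**Figure D1:**
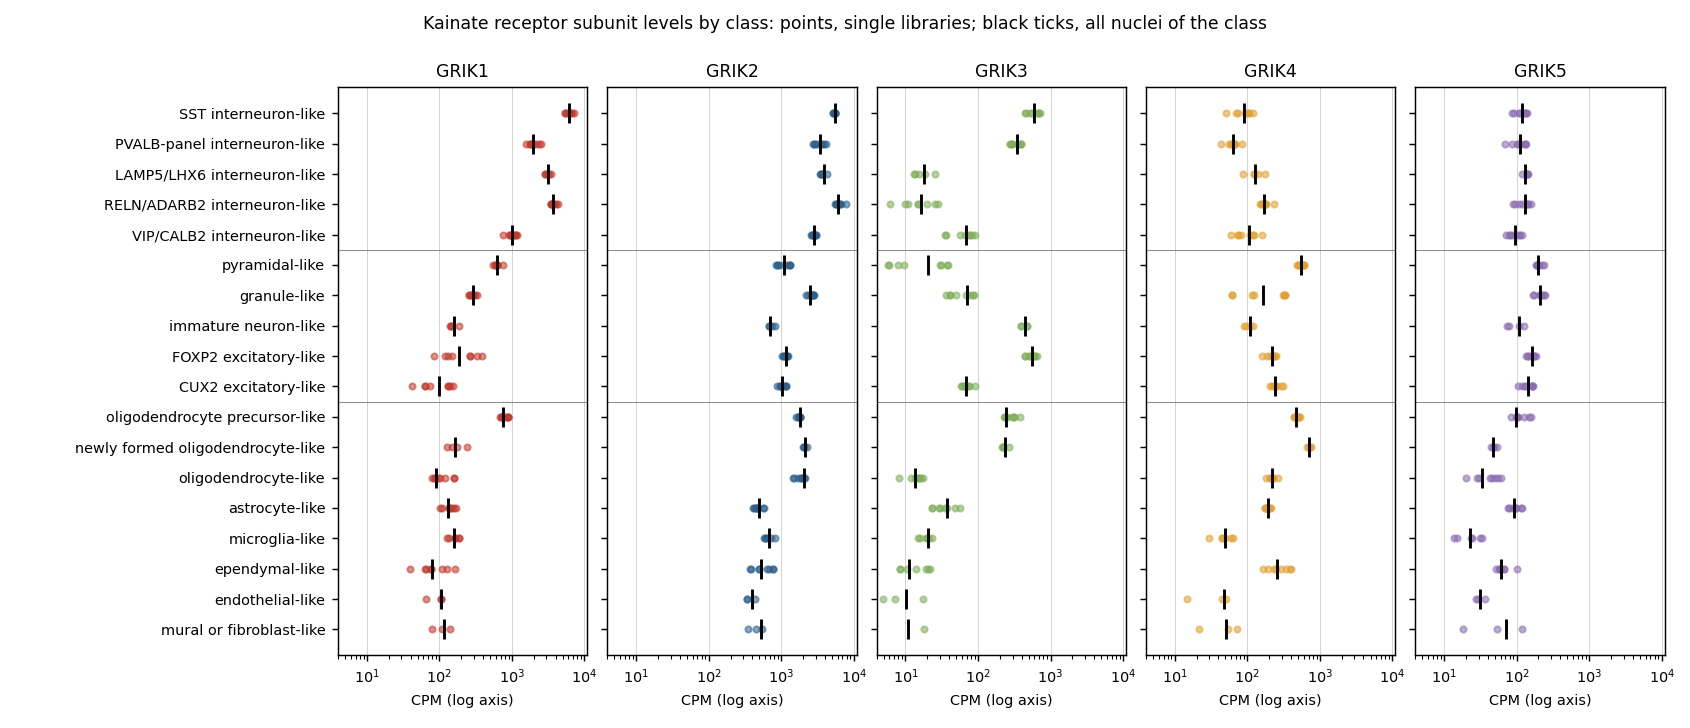
Level of each subunit gene in 18 classes on a log axis of CPM, 1 panel per gene; coloured points are libraries with at least 50 nuclei of the class (a library at 0 is not drawn) and black ticks the sum over all nuclei. GRIK1 peaks in SST-like interneurons at 6153 CPM, GRIK3 divides the interneuron classes, and GRIK4 peaks in newly formed oligodendrocytes at 720 CPM.

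When the 19 named classes were put in order of level, the distance from the highest to the lowest class was 78.2-fold for GRIK1, 58.9-fold for GRIK3, 15.6-fold for GRIK2, 14.9-fold for GRIK4 and 9.26-fold for GRIK5. Most neighbours in the order could not be separated. Of 16 neighbouring pairs with library values, the library ranges did not overlap in 3 for GRIK1, 2 for GRIK2, 1 for GRIK4 and 0 for GRIK3 and GRIK5. For GRIK1 these were the steps below the SST-like, the LAMP5/LHX6-like and the PVALB-panel classes. For GRIK2 they were the steps below the SST-like class and below the CUX2 excitatory neurons, and for GRIK4 the step below the newly formed oligodendrocytes.

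For comparisons between classes, a gene was called when it differed at least 2-fold, reached 10 CPM in the higher class and went the same way in every library with at least 50 nuclei of both classes. Ratios carry exact 95% intervals, which cover counting error only. Inhibitory neurons (7021 nuclei) were set against excitatory neurons (19277 nuclei), and 4 of the 5 subunit genes were called where 12.6% of the 9464 genes tested were. GRIK1 had 3141 CPM in inhibitory and 251 CPM in excitatory neurons, 12.5-fold higher (interval 12.4 to 12.6), and the log2 ratio ran from 3.22 to 3.88 over the 8 libraries. GRIK2 was 3.07-fold higher (3.05 to 3.09) at 4371 against 1422 CPM, with library log2 ratios of 1.54 to 1.81. GRIK4 went the opposite way, 119 CPM in inhibitory against 352 CPM in excitatory neurons, 2.96-fold lower (2.87 to 3.04), with library log2 ratios of -2.01 to -1.28. GRIK5 was 1.69-fold lower in inhibitory neurons, 114 against 191 CPM, also in 8 of 8 libraries but short of 2-fold. GRIK3 was called at 2.02-fold (242 against 120 CPM), but it fell under the threshold without library 1 (log2 ratio 0.99), 2 (0.98) or 7 (1.00), with TMM scaling (trimmed mean of M-values; 0.91), with libraries weighted equally (0.99) and with doublets kept (0.99). The median log2 ratio of the 5 genes was 1.01, beside 0.11 for all genes tested.

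Between all neurons (28470 nuclei) and non-neuronal nuclei (23287 nuclei), 2 of the 5 were called, where 30.7% of genes were. GRIK1 was 3.61-fold higher in neurons (3.54 to 3.67), 789 against 219 CPM, and GRIK5 2.77-fold higher (2.68 to 2.86), 175 against 63.3 CPM, each in 8 of 8 libraries. GRIK2 differed less than 2-fold (1959 against 1306 CPM) with library log2 ratios from 0.18 to 1.62. GRIK4 was at 304 and 276 CPM, and its library log2 ratios, -0.03 to 0.50, spanned 0. GRIK3 at 149 against 76.1 CPM (1.96-fold) fell just short. It passed 2-fold without library 4 (log2 ratio 1.02), with libraries weighted equally (1.06) and at a coarser clustering (Leiden resolution 0.5; 1.74). It also passed with 5% of the overall profile taken off as free RNA (1.04). With TMM scaling, which moved the median of all genes by 0.22 in favour of neurons, it passed as well (1.20).

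**Figure D2:**
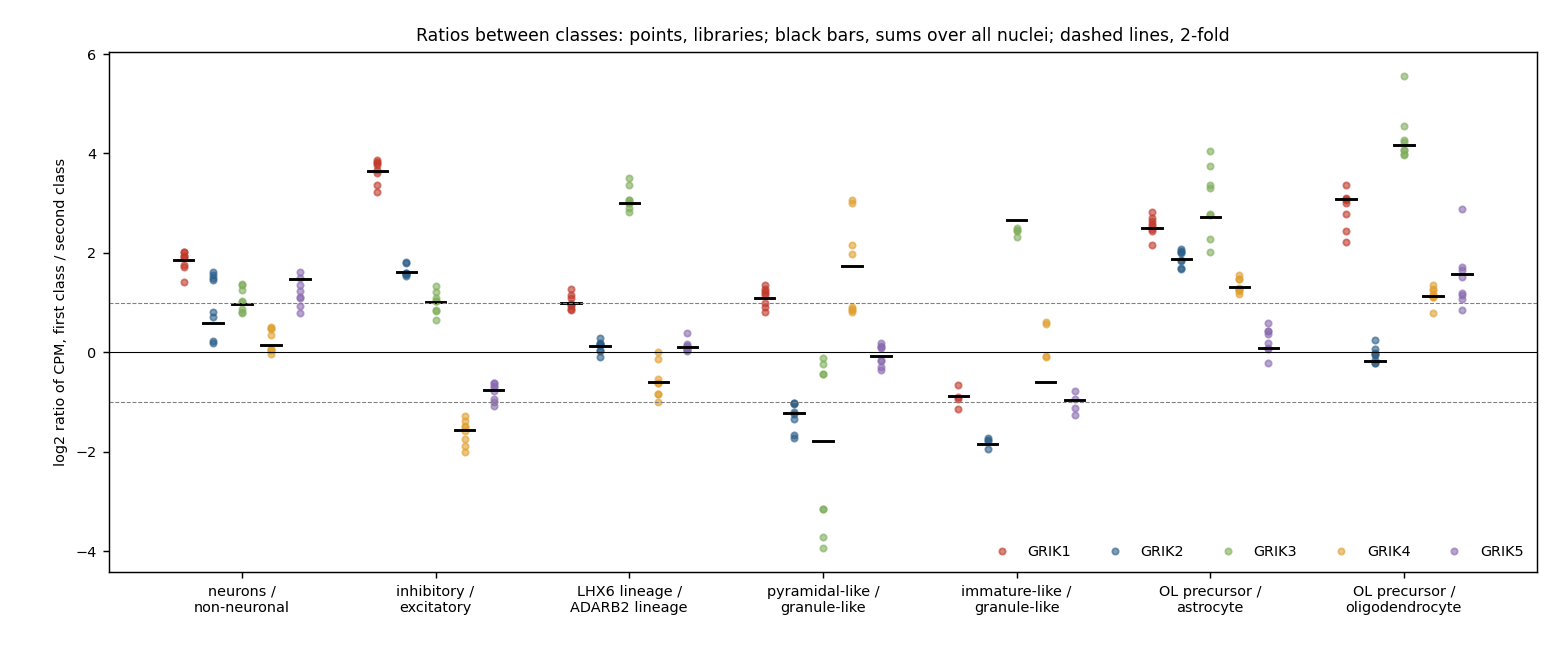
log2 ratio of CPM between classes for each subunit gene in 7 comparisons; points are libraries, black bars the ratio of sums over all nuclei, dashed lines 2-fold. GRIK1 and GRIK2 lie above 0 and GRIK4 below 0 in every library for inhibitory against excitatory neurons, and GRIK3 and GRIK4 fall into separate sets of libraries for pyramidal-like against granule-like neurons.

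Among interneurons, the lineage marked by LHX6 (3523 nuclei; SST-like, PVALB-panel and LAMP5/LHX6-like), which arises in the medial ganglionic eminence, was set against the lineage marked by ADARB2 (2459 nuclei; RELN/ADARB2-like and VIP/CALB2-like), which arises in the caudal one. Of the 5 genes, 1 was called, where 7.3% of genes were. GRIK3 had 401 CPM in the LHX6 lineage and 49.7 CPM in the ADARB2 lineage, 8.07-fold higher (7.43 to 8.78), with library log2 ratios of 2.82 to 3.51. GRIK1 had 3952 against 1976 CPM, higher in 8 of 8 libraries, and lay just under 2-fold. It passed when library 3, 5, 6, 7 or 8 was left out (log2 ratios 1.00 to 1.03) and with TMM scaling (1.01). GRIK2 (4378 against 3997 CPM), GRIK4 (85.1 against 129 CPM) and GRIK5 (117 against 108 CPM) differed less than 2-fold.

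The lineage value for GRIK3 hides a division inside the LHX6 lineage, since LAMP5/LHX6-like nuclei had little of it. Each of the 5 subtypes was set against the other named interneurons, and 6 of these 25 member comparisons were called. SST-like interneurons had 2 called subunits, where 6.81% of genes were: GRIK1 at 6153 against 2128 CPM, 2.89-fold higher (2.86 to 2.92), and GRIK3 at 596 against 156 CPM, 3.81-fold higher (3.66 to 3.97). Library log2 ratios were 1.31 to 1.68 and 1.74 to 2.08. PVALB-panel interneurons had 0 of 5 called, where 6.83% of genes were. GRIK1 was 1.95-fold lower there (1940 against 3791 CPM) in 8 of 8 libraries, and it passed 2-fold without library 1 (log2 ratio -1.01) and narrowly without library 4. GRIK4 was 63.5 against 113 CPM, lower in 8 of 8 libraries, and passed with doublets kept (log2 ratio -1.04), with free RNA taken off (-1.02) and with at least 1000 genes per nucleus (-1.01).

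The other 3 subtypes were marked by low GRIK3. In LAMP5/LHX6-like interneurons (5 libraries), where 6.97% of genes were called, it was the only subunit called, 17.6-fold lower (13.8 to 22.8). In RELN/ADARB2-like interneurons, where 8.7% of genes were called, it was again the only one, 19.8-fold lower (15.6 to 25.5). There GRIK4 was 1.90-fold higher, higher in 8 of 8 libraries, and passed without library 7 (log2 ratio 1.00), with 5% of the overall profile taken off as free RNA (1.06), with doublets kept (1.11) and with at least 1000 genes per nucleus (1.18). In VIP/CALB2-like interneurons 2 subunits were called, where 8.14% of genes were: GRIK1 was 3.85-fold lower (3.76 to 3.94), 1016 against 3914 CPM, and GRIK3 was at 68.4 against 342 CPM, lower by 4.58 to 5.47-fold. GRIK2 and GRIK5 were called in none of the 5 subtypes, and GRIK5 stayed within 1.24-fold. GRIK3 in LAMP5/LHX6-like (17.8 CPM) and RELN/ADARB2-like nuclei (16.1 CPM) lay near the 20.7 CPM of microglia-like nuclei. The size of its folds there is therefore uncertain beyond the counting intervals.

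The PVALB-panel class held 2 clusters. Cluster 20 (1114 nuclei) had GRIK3 at 407 CPM and cluster 39 (287 nuclei) at 84.4 CPM, a 4.83-fold difference (4.14 to 5.67). Only 1 library held 50 nuclei of both, with a log2 ratio of 2.19. GRIK1 (2067 against 1461 CPM) and GRIK2 (3646 against 2623 CPM) were also higher in cluster 20, with log2 ratios of 1.29 and 0.80 in that library. None of the 10 leading genes of cluster 39 was in a marker panel, so its place in the class rests on panel scores.

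Pyramidal-like (3316 nuclei) and granule-like neurons (3030 nuclei) were compared next. FIBCD1, the CA1 marker, was among the 10 leading genes of 2 of the 3 pyramidal-like clusters, so the class is not taken for the CA3 target of mossy fibres. Of the 5 subunit genes, 4 were called between them, where 11.6% of genes were. GRIK2 was 2.32-fold lower in pyramidal-like neurons (2.29 to 2.35), 1079 against 2500 CPM, with library log2 ratios of -1.72 to -1.02. GRIK4 was 3.35-fold higher (3.23 to 3.47), 551 against 165 CPM, with library log2 ratios of 0.80 to 3.07. GRIK1 was 2.14-fold higher (2.08 to 2.20), 626 against 292 CPM, and GRIK3 3.46-fold lower (3.17 to 3.79), 20.6 against 71.5 CPM. GRIK5 was level, 199 against 209 CPM. The calls of GRIK1 and GRIK3 were lost without the small cluster 40 (log2 ratios 0.82 and -1.72) and when doublets were kept (0.80 and -1.52). GRIK1 then fell under 2-fold, and GRIK3 no longer went 1 way in every library.

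Both classes were made of clusters that shared almost no library, so each pair was also compared where the libraries matched. In libraries 1 to 4, pyramidal-like cluster 12 (1502 nuclei) stood against granule-like cluster 6 (2063 nuclei), and GRIK4 was 508 against 102 CPM, 4.97-fold higher (4.71 to 5.24). In libraries 5 to 8, cluster 10 (1584 nuclei) stood against cluster 22 (967 nuclei), and GRIK4 was 560 against 328 CPM, 1.71-fold higher (1.62 to 1.79). The 10 leading genes of cluster 22 held none of the granule panel. They held MYO5B, a gene of the PVALB panel that was nevertheless highest in the granule-like class (251 CPM). The granule panel score of cluster 22 was 0.869, with 0.424 for its next panel, against 1 for cluster 6. The name of cluster 22 is thus the less certain. The pyramidal-like levels were close, and the granule-like levels were not. In granule-like nuclei, GRIK4 was at 124, 115, 62.4 and 61.6 CPM in libraries 1 to 4 and at 324, 336, 334 and 314 CPM in libraries 5 to 8. These values do not overlap. Whether the 2 granule-like clusters hold the same kind of neuron, or whether their libraries differ by sample, cannot be told apart here.

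GRIK3 differed between the matched pairs too. It was 11.8-fold lower in cluster 12 than in cluster 6 (7.02 against 82.7 CPM), but 38.9 against 42.0 CPM in clusters 10 and 22, with 2 of 4 libraries on either side. GRIK2 was lower in the pyramidal-like cluster in all 4 libraries of each pair, 890 against 2427 CPM (2.73-fold) and 1272 against 2690 CPM (2.11-fold). GRIK1 was higher in the pyramidal-like cluster in all 4 libraries of each pair, 598 against 294 CPM (2.04-fold) and 422 against 288 CPM (1.47-fold).

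Within the pyramidal-like class, cluster 40 (230 nuclei, libraries 5 to 8) had 2050 CPM of GRIK1 (1615 to 2235 in 3 libraries), 4.86-fold more than cluster 10 (4.68 to 5.04), with library log2 ratios of 1.78 to 2.36. Its GRIK4 was 791 CPM against 560 CPM, higher in 3 of 3 libraries, and its GRIK3 was 6.31 CPM against 38.9 CPM. PCP4, known from CA2 neurons, was among its 10 leading genes. So were ERG and ST18, which belong to the endothelial and oligodendrocyte panels, and no gene of the pyramidal panel was. The part of other cell types in its values was not tested.

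Immature neurons (2172 nuclei of cluster 5, with DCX at 223 CPM and PROX1 at 431 CPM) were set against all 3030 granule-like neurons, and the direction was checked in the 4 libraries that held both. PROX1 belongs to the granule and VIP/CALB2 panels. In the immature panel DCX and EOMES (25.5 CPM) were highest in this class. NEUROD1 was at 0 CPM in every class, SOX11 at only 3.16 CPM, and SOX4 and IGFBPL1 were slightly higher in oligodendrocyte-lineage classes. Of the 5 subunit genes, 2 were called, where 24.5% of genes were. GRIK3 was 451 against 71.5 CPM, 6.30-fold higher (5.90 to 6.74), and GRIK2 was 696 against 2500 CPM, 3.59-fold lower (3.46 to 3.73). Against cluster 6, which shares the libraries, the differences were 5.45-fold and 3.49-fold, with library log2 ratios of 2.33 to 2.50 and -1.94 to -1.73. GRIK1 (159 against 292 CPM) and GRIK5 (107 against 209 CPM) were lower in 4 of 4 libraries by 1.83-fold and 1.95-fold. Both passed 2-fold with TMM scaling (log2 ratios -1.19 and -1.28), which moved the median of all genes by -0.32, and with free RNA taken off (-1.04 and -1.01). Without library 2, GRIK1 passed (-1.03), and without library 1, GRIK5 passed (-1.09). GRIK4 had 109 CPM, against 102 CPM in cluster 6.

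**Figure D3:**
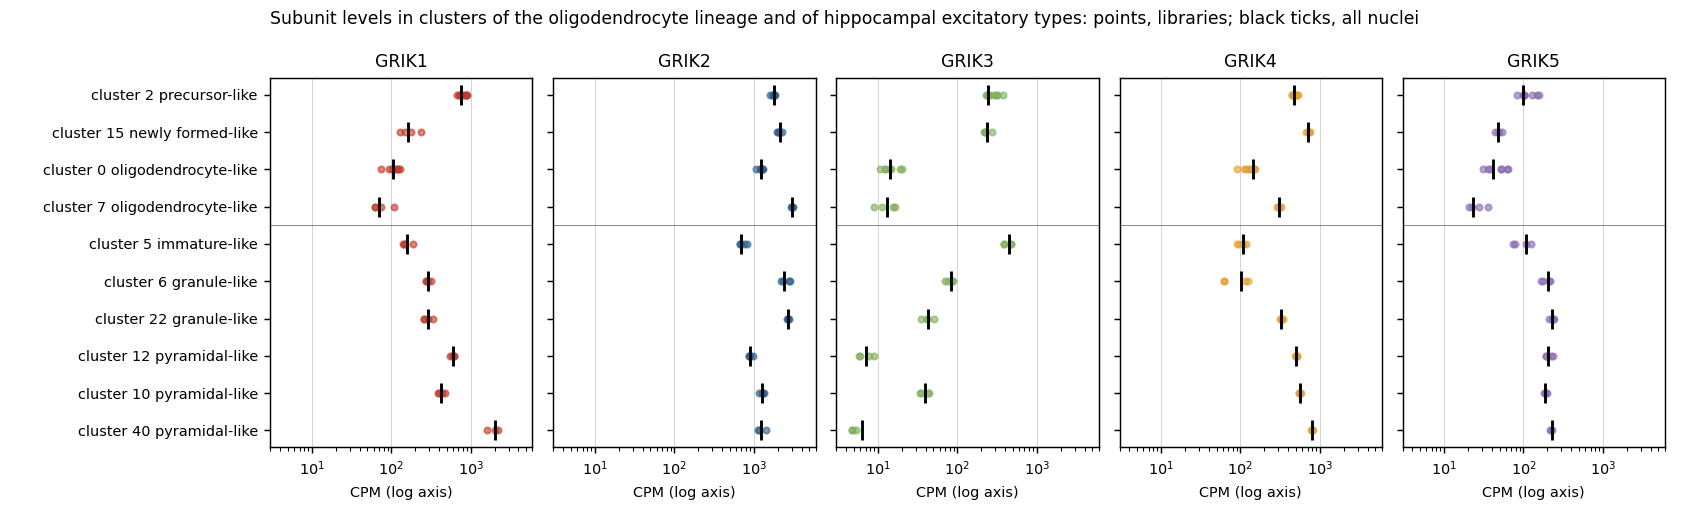
Level of each subunit gene in 10 clusters on a log axis of CPM, 4 of the oligodendrocyte lineage above the grey line and 6 of immature, granule-like and pyramidal-like neurons below it; points are libraries with at least 50 nuclei, black ticks all nuclei. GRIK4 separates granule-like clusters 6 and 22 (102 and 328 CPM), GRIK1 singles out cluster 40 (2050 CPM), and GRIK2 is higher in oligodendrocyte cluster 7 (3070 CPM) than in cluster 0 (1245 CPM).

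Oligodendrocyte precursors (3522 nuclei) expressed a broad set of subunits. Against astrocytes (7675 nuclei), 4 of the 5 were called, all higher in precursors, where 19.3% of genes were called in either direction. GRIK3 was 6.57-fold higher (6.03 to 7.17; 246 against 37.5 CPM), GRIK1 5.68-fold (5.42 to 5.95; 758 against 134 CPM), GRIK2 3.68-fold (3.58 to 3.77; 1796 against 488 CPM) and GRIK4 2.49-fold (2.39 to 2.61; 476 against 191 CPM). Each was higher in 8 of 8 libraries. GRIK5 was level, 99.2 against 92.8 CPM. Their median log2 ratio was 1.88, beside -0.08 for all genes tested.

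Against oligodendrocytes (5926 nuclei), 4 of the 5 were again called higher in precursors, where 21.1% of genes were called, and GRIK2 was the exception. GRIK3 was 18.0-fold higher (15.8 to 20.6), GRIK1 8.49-fold (8.05 to 8.96), GRIK5 2.97-fold (2.68 to 3.30) and GRIK4 2.21-fold (2.11 to 2.30). GRIK3 (13.7 CPM) and GRIK1 (89.2 CPM) in oligodendrocytes lay under the 20.7 and 157 CPM of microglia-like nuclei. The size of their folds is therefore uncertain beyond the counting intervals. GRIK2 had 1796 CPM in precursors and 2035 CPM in oligodendrocytes, with library log2 ratios of -0.22 to 0.25. GRIK4 fell just under 2-fold at a finer clustering (Leiden resolution 2.0; log2 ratio 0.99), and TMM scaling moved the median of all genes by -0.13 in this comparison.

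The stages between these ends did not share 1 course. Newly formed oligodendrocytes had 4.62-fold less GRIK1 than precursors (164 against 758 CPM; lower in 4 of 4 libraries), whereas GRIK3 was at 237 against 246 CPM, with a higher value in 1 of 4 libraries. GRIK4 was 1.51-fold higher in newly formed oligodendrocytes (1.45 to 1.58) and GRIK5 2.10-fold lower. Oligodendrocytes held 2 main clusters, and cluster 7 (1864 nuclei, led by OPALIN and MBP, genes of myelinating cells) had 3070 CPM of GRIK2 against 1245 CPM in cluster 0 (4062 nuclei), 2.47-fold more (2.41 to 2.52). GRIK4 was 309 against 144 CPM, 2.15-fold more (2.01 to 2.29). Both were higher in 4 of 4 libraries. GRIK1 and GRIK5 were lower in cluster 7 in 4 of 4 libraries, by 1.49-fold and 1.76-fold.

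The share of all subunit UMIs held by 1 gene shows the mix in a class, and it is compared across classes because genes differ in length and capture. SST-like interneurons had the highest GRIK1 share, 49.6% (46.4 to 53.7% over libraries), with GRIK2 at 43.9%. GRIK2 held 85.3% in oligodendrocytes (77.4 to 85.8%) and 77.2% in granule-like neurons (74.5 to 83.4%), against 43.6% in pyramidal-like neurons (39.4 to 47.9%). Pyramidal-like neurons instead had 25.3% from GRIK1 and 22.3% from GRIK4 (20.9 to 23.6%). The GRIK4 share was highest in ependymal nuclei, 27.5% (22.4 to 31.6%). It lay near the pyramidal-like value in newly formed oligodendrocytes (21.9%) and astrocytes (20.2%). GRIK3 made up 29.6% in immature neurons (25.6 to 30.8%) and 24.5% in FOXP2 excitatory neurons (19.5 to 29.2%), and under 10% in all other named classes. The high-affinity genes GRIK4 and GRIK5 together held 2.91% in inhibitory neurons (Clopper-Pearson interval 2.86 to 2.97%) and 23.3% in excitatory neurons (23.1 to 23.4%). Within the latter, the share was 30.3% in pyramidal-like and 11.5% in granule-like neurons. Ependymal nuclei (34.1%) and astrocytes (30.1%) had shares near or above the pyramidal-like one.

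**Figure D4:**
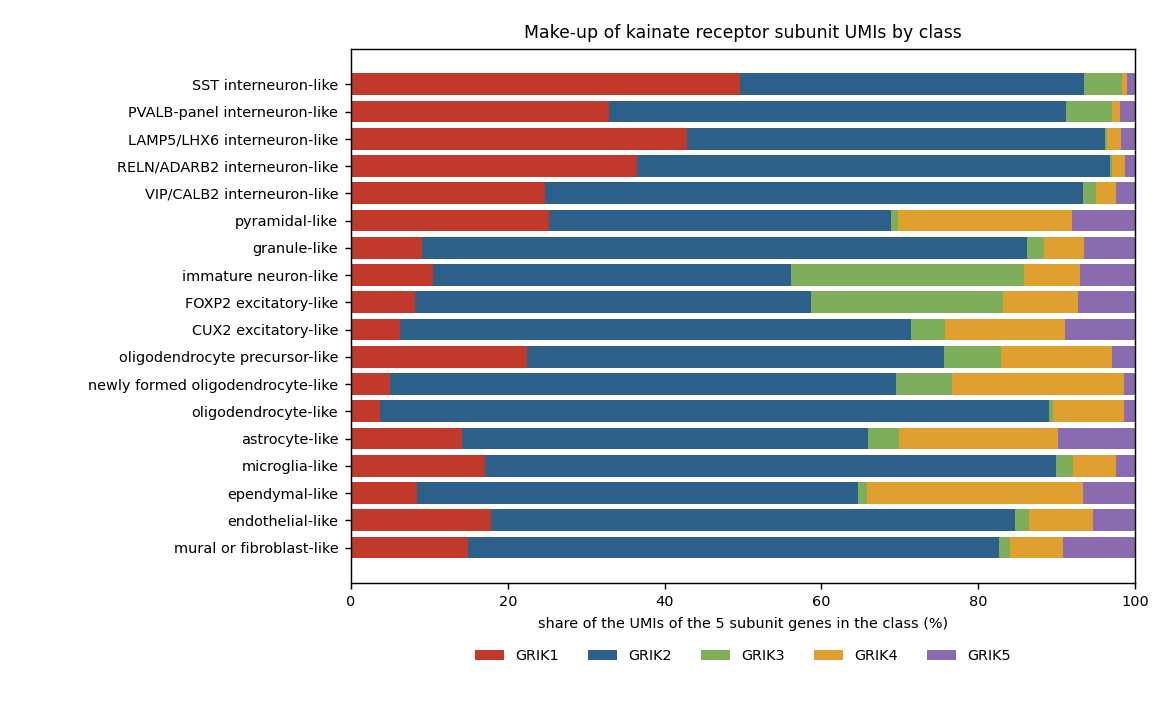
Share (%) of the summed UMIs of the 5 subunit genes held by each gene, as stacked bars in 18 classes. GRIK1 and GRIK2 fill most of the interneuron bars. GRIK4 takes 27.5% in ependymal nuclei and 22.3% in pyramidal-like neurons, GRIK3 29.6% in immature neurons, and GRIK2 85.3% in oligodendrocytes.

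Nuclei differed in depth, so each was thinned to 1000 UMIs before counting those with at least 1 UMI of a gene. Microglia-like nuclei were taken as a class that should hold little of these genes: 14.5% had a GRIK1 UMI and 46.8% a GRIK2 UMI (median 1587 UMIs before thinning). In endothelial nuclei the shares were 10.5% and 35.4% (median 2430 UMIs). Nuclei under 1000 UMIs were left out, 267 of the microglia-like, 320 of the astrocytes and 4 of the SST-like class. GRIK1 was seen in 91.9% of RELN/ADARB2-like interneurons (interval 89.8 to 93.7%; 98.9% before thinning, median 4864 UMIs) and in 88% of SST-like interneurons (86.3 to 89.6%; 96.0% before thinning, median 6292 UMIs). It was seen in 63.6% of PVALB-panel and 48.0% of VIP/CALB2-like interneurons (88.2% and 74.5% before thinning), in 46.2% of oligodendrocyte precursors (72.4%) and in 34.2% of pyramidal-like neurons (79.5%). GRIK1 shares in oligodendrocytes (9.51%) and CUX2 excitatory neurons (8.28%) were under both of these classes, and that in astrocytes (12.3%) lay between them, so none is read as expression. GRIK1 was thus in more RELN/ADARB2-like than SST-like nuclei although its level was higher in the latter, and no order is read from this pair.

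GRIK2 was seen in 99.1% of RELN/ADARB2-like and 97.7% of SST-like interneurons (both 100% before thinning), 84.0% of granule-like neurons, 81.1% of newly formed oligodendrocytes and 58.5% of pyramidal-like neurons, and in 48.7% of immature neurons, close to background. GRIK3 was seen in 43.5% of SST-like interneurons (92.7% before thinning), 41.1% of FOXP2 excitatory neurons (92.4%) and 33.4% of immature neurons (50.7%, median 1877 UMIs), against 2.04% of microglia-like nuclei. In pyramidal-like (1.72%), LAMP5/LHX6-like (2.26%) and RELN/ADARB2-like nuclei (1.71%) its share was at background. GRIK4 was seen in 48.0% of newly formed oligodendrocytes (81.9% before thinning), 40.9% of pyramidal-like neurons (94.0%) and 35.4% of oligodendrocyte precursors (65.9%), against 5.32% of microglia-like nuclei. Its shares in SST-like (5.82%) and PVALB-panel interneurons (5.50%) were at background. GRIK5 was seen in 18.6% of pyramidal-like and 18.3% of granule-like neurons, against 2.08% of microglia-like nuclei.

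The auxiliary subunits and partners of kainate receptors were followed as a list of 13 genes. NETO1 and NETO2 encode the transmembrane auxiliary subunits that slow channel closing, C1QL2 and C1QL3 encode secreted proteins that bind kainate receptors at mossy fibre synapses, and ADARB1 encodes an enzyme that edits the RNA of glutamate receptor subunits. Both NETO genes were highest in SST-like interneurons, NETO1 at 818 CPM (755 to 1011 over libraries) and NETO2 at 1280 CPM (1140 to 1498). Against the other named interneurons these were 2.80-fold and 2.18-fold higher. They were the 2 genes of the 10 measured in the list that were called, where 6.81% of all genes were. NETO2 was 4.05-fold higher in inhibitory than in excitatory neurons (765 against 189 CPM), while NETO1 was at 471 and 377 CPM. In that comparison 2 of 12 measured list genes were called higher in inhibitory and 3 in excitatory neurons (C1QL3, C1QL2 and DLG1), with a median log2 ratio of -0.03, where 12.6% of all genes were called. C1QL2, at 2.46 against 10.3 CPM, lay just over the minimum of 10 CPM and lost its call without library 2 (9.95 CPM), 5 (9.97 CPM) or 6 (9.97 CPM).

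C1QL3 was highest in granule-like neurons, 59.0 CPM (46.7 to 70.3), 7.08-fold above pyramidal-like neurons (8.33 CPM), and ADARB1 was 3.04-fold higher in granule-like neurons (104 against 34.1 CPM). NETO2 went the opposite way, 2.87-fold higher in pyramidal-like neurons (186 against 64.8 CPM). These 3 were the called genes among 12 measured, where 11.6% of all genes were called, and NETO1 (241 against 317 CPM) and C1QL2 (10.6 against 13.6 CPM) were not called. Immature neurons had 4.24-fold more NETO2 than granule-like neurons (275 against 64.8 CPM), 3.39-fold less NETO1 (93.6 against 317 CPM) and 5.02-fold less C1QL3 (11.8 against 59.0 CPM). In all, 3 of 12 list genes were called higher there and 2 lower, where 24.5% of all genes were called. In the oligodendrocyte lineage, precursors had 6.08-fold more NETO1 (260 against 42.8 CPM), 4.44-fold more NETO2 (263 against 59.2 CPM) and 3.79-fold more ADARB1 (85.9 against 22.7 CPM) than oligodendrocytes. There 6 of 11 measured list genes were called higher in precursors and 2 lower, where 21.1% of all genes were called. Newly formed oligodendrocytes had NETO2 at 666 CPM (643 to 693) but NETO1 at 85.7 CPM (78.0 to 111).

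AMPA and NMDA receptor genes were tallied by the same rule. Between inhibitory and excitatory neurons, 1 of 4 AMPA receptor genes and 2 of 6 measured NMDA receptor genes were called, all higher in inhibitory neurons, where 12.6% of all genes were called. Between pyramidal-like and granule-like neurons, 0 of 4 AMPA and 1 of 6 NMDA receptor genes were called, where 11.6% of all genes were. The kainate count was 4 of 5, but its GRIK1 and GRIK3 calls were lost without cluster 40 and with doublets kept. In the library-matched pairs, GRIK4 was 4.97-fold higher in cluster 12 than in cluster 6, but only 1.71-fold higher in cluster 10 than in cluster 22. GRIK1 was 2.04-fold and 1.47-fold higher in these pairs. GRIK2 was lower by more than 2-fold in both (2.73-fold and 2.11-fold). The difference between families was not tested. In SST-like against the other named interneurons, GRIA4 was 3.67-fold lower (463 against 1699 CPM). In precursors against oligodendrocytes, 4 of 4 AMPA receptor genes were called higher, where 21.1% of all genes were called in either direction. GRIA4 led (8.12-fold, 630 against 77.7 CPM).

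Across the 19 named classes, the subunit genes resembled each other little. Pearson's r of log2(CPM + 1) was 0.83 between GRIK1 and GRIK2 and lay between -0.08 and 0.46 for the other 9 pairs. With NETO1 and NETO2, r was 0.77 and 0.72 for GRIK1, 0.67 and 0.63 for GRIK2, 0.52 and 0.57 for GRIK3, -0.01 and 0.10 for GRIK4, and 0.72 and 0.36 for GRIK5. Of 12990 genes, those most like GRIK1 were ANK1 (r = 0.90), GRIP2 (0.88) and NRIP3 (0.88), and those most like GRIK5 were MAP7D2 (0.91), C17orf78 (0.91) and ICA1L (0.90). SCAMP5 (0.88) and ADAM22 (0.87) followed an unnamed gene (0.90) for GRIK2, SOGA3 (0.78), KIAA0408 (0.77) and MMP16 (0.77) led for GRIK3, and LANCL2 (0.77) and COL20A1 (0.75) were 2 of the 3 for GRIK4. The classes share libraries and differ in depth, so these values are descriptions.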

How the data were processed

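The deposited matrix holds whole numbers, raw UMI counts for each gene in each nucleus, from Cell Ranger 3.1.0 per the file headers. Other software in the submitters' processing notes is CASAVA 1.8 and Seurat. Which genome build and annotation the counts rest on, and whether intron reads were counted, is not given in the sources used here. Of the gene IDs, 17209 matched a symbol table, which supplied 681 symbols where the file gave none or a repeated one. No coordinates or sequences are printed.

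A minimum of 500 UMIs and 300 genes left 58220 nuclei, and 3576 were then removed as doublets by similarity to simulated ones, 4.18 to 7.75% of each library. Counts were scaled to 10000, log-transformed, reduced to 30 components from 2000 variable genes other than the listed receptor genes, and clustered (Leiden, resolution 1, leidenalg 0.10.2). A cluster took the panel of highest mean scaled log2(CPM + 1) where 3 markers passed 0.5 and the lead reached 0.1 (0.7 for subtypes). The scoring rule was chosen with the data in view. Clusters with low counts or no lead stayed unnamed (2794 nuclei), and an ADARB2 cluster of 1039 nuclei without a clear subtype counts as inhibitory only.

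UMIs were summed by class and divided by class totals. Intervals are exact at 95% (Poisson, conditional binomial, Clopper-Pearson) and cover counting error only. The comparison code was tested on simulated data. Alternatives were TMM (edgeR 4.0.16), a 1 CPM filter, 1000 genes per nucleus, equal library weights, Leiden resolutions 0.5 and 2, doublets kept, 5% of free RNA taken off, and each library left out. Named were all members, NETO1, NETO2, C1QL2, C1QL3 and ADARB1, called list genes (up to 3 of largest fold per direction) and for each member the 3 genes most like it. Cluster and class markers were named after their values were seen. The members and lists were chosen with earlier results of these data known.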

Additional observations from a re-analysis of the deposited data

Results flagged for a closer look

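Over the 8 libraries (5 for LAMP5/LHX6-like interneurons, 4 for immature neurons), 60 sets of library log2 ratios of the 5 subunit genes were searched for a library far from the others, and 9 were found. For independent, normally spread values about 1 in 20 would be found, but these sets share nuclei, so no excess is read from the count. For precursors against oligodendrocytes, library 7 had a GRIK3 log2 ratio of 5.57 (379.9 against 8.02 CPM) where the others had 3.97 to 4.55, library 6 a GRIK5 ratio of 2.89 (148 against 20 CPM) where the others had 0.86 to 1.71, and library 5 a GRIK4 ratio of 0.78 (459 against 267 CPM) where the others had 1.11 to 1.35. For RELN/ADARB2-like against the other named interneurons, library 1 had a GRIK1 ratio of 0.57 (others 0.04 to 0.27) and library 3 a GRIK4 ratio of 1.79 (others 0.52 to 1.10). For LAMP5/LHX6-like interneurons, library 1 had a GRIK2 ratio of 0.089 (others -0.34 to -0.23) and a GRIK5 ratio of 0.27 (others 0.12 to 0.15). Library 1 also had a GRIK5 ratio of 0.39 in the LHX6 against the ADARB2 lineage (others 0.03 to 0.16), and library 3 a GRIK5 ratio of -0.58 in PVALB-panel interneurons (others -0.18 to 0.18). Of the 9, 4 came from library 1. Ratios at low levels, such as the 8.02 CPM of GRIK3 in library 7, rest on few UMIs.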

How the results depend on the processing

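Of 60 member comparisons, 27 were called, where 6.81 to 30.7% of all genes were called in the single comparisons. The comparisons share nuclei, so the 60 are not separate results. Over 18 alternatives no call changed direction. The number of members called moved by more than 1.5 times in 5 comparisons. Between immature and granule-like neurons it was 4 in place of 2 with TMM scaling and with free RNA taken off. Between the LHX6 and ADARB2 lineages it was 2 in place of 1 with TMM scaling, equal library weights, free RNA taken off or Leiden resolution 2.0, and 1 to 2 when single libraries were left out, since GRIK1 lies at the threshold. Between pyramidal-like and granule-like neurons it was 2 in place of 4 with doublets kept and without cluster 40. In RELN/ADARB2-like interneurons it was 2 in place of 1 with free RNA taken off, 1000 genes per nucleus, doublets kept or library 7 left out (GRIK4). In PVALB-panel interneurons it was 1 in place of 0 with the first 3 of these (GRIK4) and without library 1 or 4 (GRIK1). Among all genes, calls between inhibitory and excitatory neurons went from 1194 to 1935 and in LAMP5/LHX6-like interneurons from 655 to 1001 with the 1 CPM filter, which tests more genes. In RELN/ADARB2-like interneurons they went from 815 to 478 with 1000 genes per nucleus and to 453 with doublets kept; the cause was not tested. Leaving out cluster 40 and counting the unassigned ADARB2 cluster in its lineage were chosen after seeing the data. At Leiden resolution 0.5, 8 comparisons gave no value (the lineages, both precursor comparisons and the 5 interneuron subtypes), and the highest class of GRIK2 became the SST-like interneurons (5446 CPM). The class of highest level was the same for all 5 members when libraries were weighted equally or left out singly. No paired analysis was possible because library numbers are not tied to the samples' replicate numbers. Depth limits GRIK3 at about 20 CPM and below, where it cannot be told from free RNA.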

Other observations

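Excitatory clusters that matched no subtype panel spread widely in the high-affinity gene GRIK4. Cluster 16 (1247 nuclei, led by ITGBL1 and TSPAN18) had 901 CPM (879 to 927 over 4 libraries) and GRIK5 at 303 CPM, both above the pyramidal-like class, and cluster 26 (746 nuclei, led by NPNT) had 645 CPM (635 to 663). In contrast, cluster 28 (693 nuclei) had 18.8 CPM of GRIK4 (12.5 to 28.2) beside 2556 CPM of GRIK2, and cluster 23 (825 nuclei) 70.0 CPM. Cluster 43 (111 nuclei, led by NDST4 and NTS) had 4475 CPM of GRIK2, and cluster 36 (402 nuclei) 678 CPM of GRIK3 (654 to 725). The clusters were picked after their values were seen, and each drew most of its nuclei from 4 libraries.

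The inhibitory cluster without a clear subtype (1039 nuclei, led by CNR1, ADARB2 and RELN) had GRIK1 at 2370 CPM (1552 to 2673), GRIK2 at 5016 CPM (4483 to 6455), GRIK3 at 27.0 CPM and GRIK4 at 222 CPM (107 to 296), the highest GRIK4 level of the inhibitory clusters.

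At 1000 UMIs per nucleus, 92.9% of SST-like interneurons had UMIs of at least 2 of the 5 subunit genes, as did 66.8% of oligodendrocyte precursors, 56.5% of newly formed oligodendrocytes, 49.4% of pyramidal-like, 42.5% of granule-like and 31.2% of immature neurons. The shares of 2 pairs seen together lay near the product of their single shares. In pyramidal-like neurons GRIK1 and GRIK4 were seen together in 14.6% of nuclei, where the product of the single shares is 14.0%, and in newly formed oligodendrocytes GRIK2 and GRIK4 in 38.7%, where it is 38.9%.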
